A study of Mus musculus with 1183 samples.

Results

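The p53 pathway was described through 10 genes: Trp53, which encodes p53, its inhibitor Mdm2, and the damage response genes Cdkn1a, Ccng1, Gadd45a, Gadd45b, Bax, Bbc3, Pmaip1 and Phlda3. They were taken by symbol, with earlier results of these data known, and they are 10 of the 18072 genes in the count table. All 10 had enough reads to be tested. They were measured by plate-based single-cell RNA-seq in immune cells sorted from mouse distal lung, all at postnatal day 7 and all under hyperoxia, oxygen above the normal level. The labels name 1 female animal with 598 cells and 1 male animal with 585 cells, and they divide the cells into 16 subtypes. By their labels, 10 cells were sorted through other gates and the rest through one on CD45, a surface protein of blood cells. Every cell shares the age, the tissue and the hyperoxia, and strain and genotype are not given in the sources used here. Cells from normal oxygen were not used here, so nothing below is an effect of oxygen.

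p53 is a transcription factor that a cell holds at a low level because Mdm2 marks it for destruction. DNA damage and other stresses block that step, and p53 then switches on genes that stop the cell cycle, repair DNA or kill the cell, together with Mdm2 itself, which closes a feedback loop. Oxygen above the normal level damages DNA through reactive oxygen species, and Cdkn1a is a well known response gene of the lung under hyperoxia. Much of the control of p53 acts on the protein, so the Trp53 message alone does not measure the activity of p53.

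Depth ran from 16753 to 7560179 reads per cell, with a median of 1100966. The labels give 15 subtypes at least 5 cells in each animal, and reads were summed over the cells of an animal and subtype into 30 libraries of 6024429 to 235566546 reads. The animal is the replicate, so n = 2 for each subtype, and female and male values are both given, in that order. The 1 cell of the subtype Mac I entered no comparison. Of 52 markers of the labelled cell types, 46 were highest in their own subtype and each list of 4 held at least 2 of these; the labels may themselves derive from the expression of these cells. Markers of other lung cells were low in most libraries: the 4 red cell genes reached 6446 CPM in neutrophils of the male and the 4 epithelial genes 10845 CPM in DC I of the male, where CPM is the count scaled to 1e6 reads of the library. Their part in the values below was not tested.

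The promoters were searched for the p53 half-site consensus, the 10-base motif that p53 binds in tandem, on both strands, in the window from 250 bases before to 50 bases after each RefSeq start on GRCm38.p6. A window was at hand for 9 of the 10 genes, all but Pmaip1. These 9 genes have 12 windows, since Cdkn1a has 2 and Bbc3 3, and a match was found in 6 of the 12, each of another gene, against 8.36% of 32851 windows of the same 300 bases. The matches are printed 5′ to 3′ on the strand of the gene with the bases around them, because they show which of the genes carry the motif at the start; capitals mark the half-site.
Cdkn1a, chr17:29090894-29090949, plus strand: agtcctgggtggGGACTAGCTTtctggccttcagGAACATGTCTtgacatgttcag
Trp53, chr11:69580272-69580305, plus strand: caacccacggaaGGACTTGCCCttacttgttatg
Mdm2, chr10:117710923-117710956, minus strand: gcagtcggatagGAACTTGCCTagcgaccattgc
Ccng1, chr11:40755450-40755483, minus strand: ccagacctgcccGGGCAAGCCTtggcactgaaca
Gadd45a, chr6:67037426-67037459, minus strand: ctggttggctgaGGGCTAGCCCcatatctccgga
Bax, chr7:45467078-45467111, minus strand: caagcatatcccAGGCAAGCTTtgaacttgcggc
The Cdkn1a window held 2 half-sites that match in full, with 12 bases between them. The 10 bases right after the second miss the consensus only at their first letter and stand unmarked. A pair with at most 13 bases between its half-sites occurred in 0.0731% of all windows. The second Cdkn1a window and those of Phlda3, Gadd45b and Bbc3 held no match, which says only that these letters are not in those windows. A match is a description of the sequence and no proof of binding, and known p53 sites can lie outside such windows.

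Across the 15 subtypes, 7 of the 10 genes differed: Cdkn1a, Trp53, Gadd45a, Gadd45b, Phlda3, Bbc3 and Pmaip1. Mdm2, Bax and Ccng1 did not pass the test. The test was edgeR's quasi-likelihood F test on summed counts with Benjamini-Hochberg adjustment, and a gene was called at an adjusted p under 0.05. It called 34.3% of the 15600 genes tested, so a call was common among all genes. The subtypes with the highest level were DC III for Cdkn1a, Gadd45b and Pmaip1, Mac III for Bax, Ccng1 and Phlda3, and neutrophils for Mdm2 and Gadd45a. Trp53 was highest in mast cell II and Bbc3 in NK cells. In 4 of the 10 genes, Bax, Gadd45a, Gadd45b and Phlda3, both animals of the highest subtype lay above all other libraries, and the same held for 21.5% of all genes. When subtypes were ranked by their mean, the animals of neighbours did not overlap in 19 of 140 cases, against 9.92% of neighbours over all genes, so most steps in the orders below are within the spread between the animals.

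**Figure D1:**
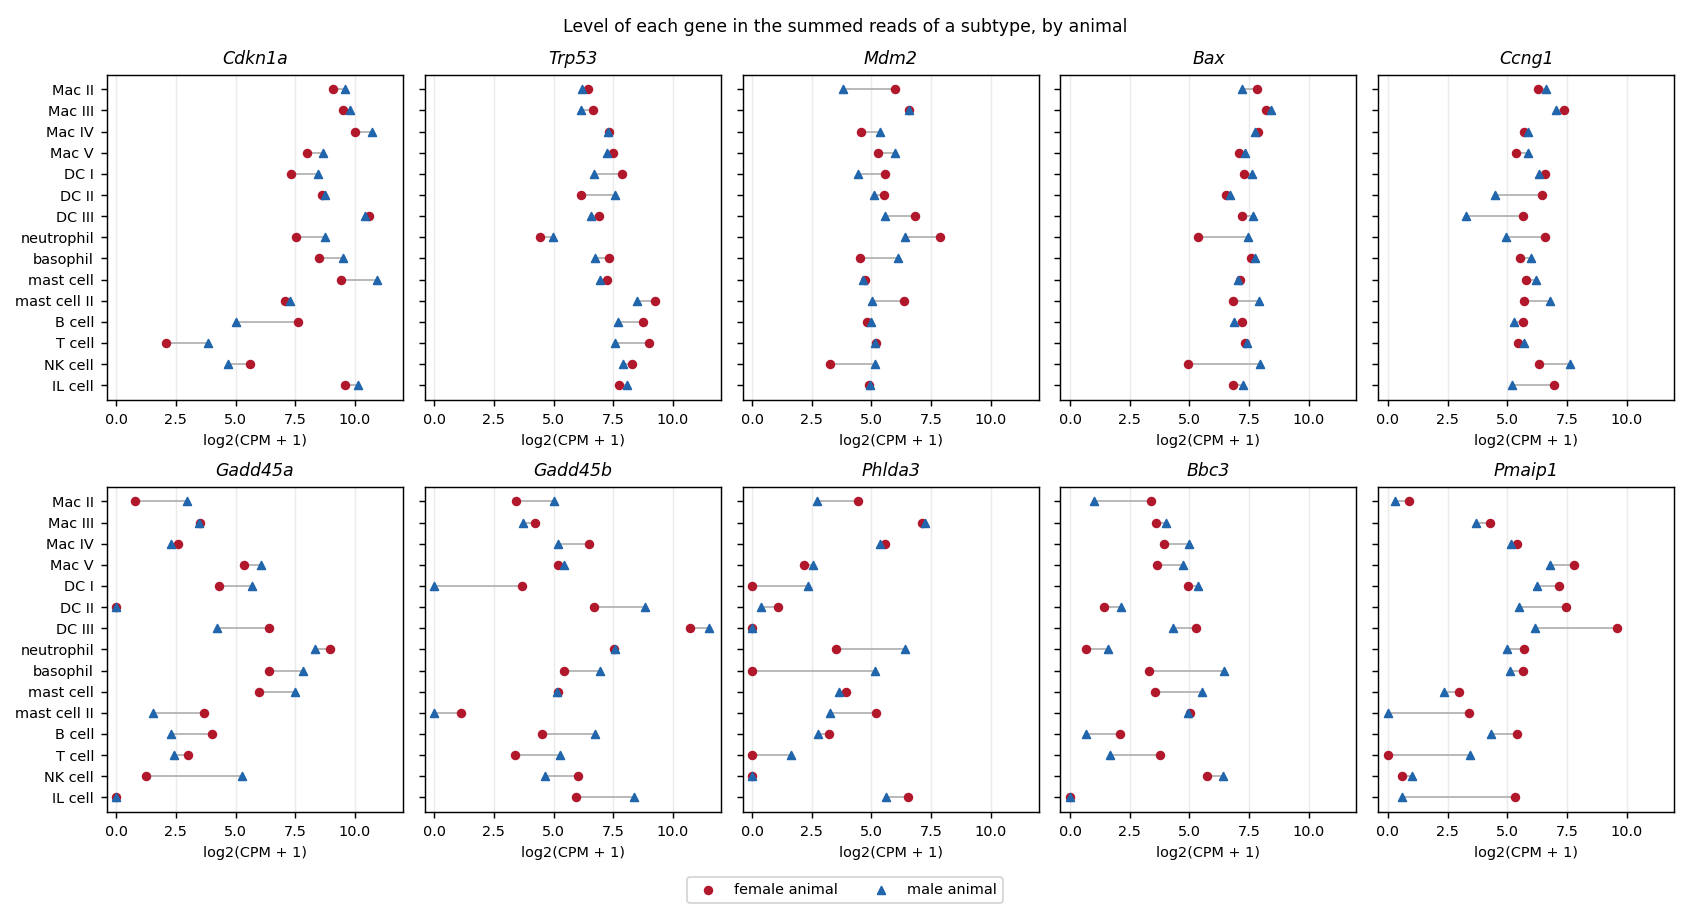
Level of each of the 10 genes in the summed reads of a subtype, as log2(CPM + 1), with the female animal as a circle and the male as a triangle joined by a line. Gadd45b in DC III and Gadd45a in neutrophils lie right of all other points of their panels, and Phlda3 of Mac III does likewise.

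Leaving out each of the 30 libraries in turn, Cdkn1a, Gadd45a, Gadd45b and Bbc3 were called in 30 of 30 fits. Pmaip1 was called in 29, and without DC III of the female its adjusted p was 0.0631 by edgeR's test. Trp53 was called in 17 fits, with an adjusted p from 0.0243 to 0.0943 by edgeR, and Phlda3 in 7, from 0.00792 to 0.0849. These calls depend on single libraries, among them either library of Mac II, Mac III, Mac IV or Mac V, without which neither gene was called. Mdm2, not called with all libraries, was called in 7 fits. With only non-cycling cells, which left 12 subtypes and no mast cell II, NK or IL cells, 3 genes were called: Gadd45a, Gadd45b and Pmaip1, while Cdkn1a had an adjusted p of 0.146, Trp53 of 0.0668 and Phlda3 of 0.0844 by edgeR. In the sequencing run that both animals share, with 885 cells and 12 subtypes, 4 were called: Cdkn1a, Trp53, Gadd45a and Gadd45b.

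Trp53 itself was high in mast cell II and in T, B, NK and IL cells, and low in neutrophils. Its level was 614 and 356.8 CPM in mast cell II, and every cell of that subtype had the message. T cells had 505 and 189.8 CPM, B cells 423 and 205.2 CPM and NK cells 314.9 and 240.5 CPM. IL cells followed with 210.2 and 266.5 CPM.
In all 5 of these subtypes both animals were above both Mac III libraries. Mac III had 99.05 and 69.2 CPM, Mac II 85.1 and 71.7 CPM and Mac IV 157.1 and 155.3 CPM. Neutrophils were lowest with 20.8 and 30.5 CPM, and DC I had 230.7 and 102.3 CPM, DC II 69.3 and 188.6 CPM and DC III 118.7 and 94.6 CPM.
Mac III, the highest subtype for Bax, Ccng1 and Phlda3, was thus among the lowest for Trp53. Mac V had 177.4 and 148.1 CPM, mast cells 150.3 and 120.9 CPM and basophils 158.2 and 105.8 CPM. The F test gave an adjusted p of 0.0271 by edgeR, and 0.0951 when each cell was scaled to the same total before summing.

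Shares of cells with a message were taken at an equal depth: every cell was reduced by random draws to 100000 reads, and at least 2 reads were required. Where a range stands beside a share, it is the 95% exact Clopper-Pearson interval over cells. The share with Trp53 was 7.27% (2.02 to 17.6) and 10.3% (4.53 to 19.2) in neutrophils and 100% and 100% in mast cell II. Neutrophils against Mac V, a pair of myeloid subtypes, gave a log2 difference of -2.27 ± 0.62 (SE) for Trp53 with an adjusted p of 0.146 by edgeR's test, so the difference did not pass. In that comparison 0 of the 10 genes and 0.404% of all genes were called by edgeR. At an unadjusted p under 0.05 were Trp53, Mdm2, Gadd45a and Bbc3, and 2026 of all genes. DESeq2 called 4 of the 10, beside 14.4% of all genes.

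Mdm2, the ubiquitin ligase that removes p53 and is also its target, was highest on average in neutrophils, where the animals differed widely. Neutrophils had 236.2 and 82.9 CPM, and 29.6% of the female's reads came from 1 cell. Mac III had 93.6 and 93.3 CPM, with hardly any difference between the animals. DC III had 113.1 and 46.8 CPM and NK cells, the lowest, 8.52 and 34.5 CPM.
By the mean share of cells Mac III stood first: 52.5% and 63.9% of its cells had the message, against 40% and 33.3% of neutrophils. Mdm2 was the only one of the 10 genes for which the subtype with the highest level was not the one with the highest share of cells. Across subtypes its adjusted p was 0.0570 by edgeR, which did not pass. It was called by edgeR with no filter on the genes, and by DESeq2, beside 62% of all genes in the latter.

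Cdkn1a, which encodes the cyclin-dependent kinase inhibitor p21, was high in DC III, Mac IV and mast cells and low in T and NK cells. DC III had 1540 and 1384 CPM, Mac IV 1009 and 1683 CPM and mast cells 678 and 1934 CPM. Of the DC III reads 54.7% in the female and 19.04% in the male came from 1 cell, and the middle DC III cell had 540.2 and 1197 CPM. IL cells had 758 and 1120 CPM, but 71.3% and 78.3% of those reads came from 1 cell in each animal. Mac III had 721 and 881 CPM and Mac II 545 and 770.5 CPM.
These 6 subtypes overlapped one another in part. Basophils had 361.5 and 723 CPM, with 70.1% of the male's reads from 1 cell, DC II 397 and 432 CPM and Mac V 253.4 and 398 CPM. Neutrophils had 182.5 and 432 CPM, with 76.4% of the female's reads from 1 cell, and DC I had 160.5 and 352.8 CPM. Mast cell II followed with 134.5 and 153.5 CPM.
B, NK and T cells were at the bottom. B cells had 192.2 and 31.3 CPM, with 81.9% of the female's reads from 1 cell. NK cells had 47.5 and 24.7 CPM and T cells 3.29 and 13.2 CPM. The adjusted p across subtypes was 5.19e-05 by edgeR. Among neighbours in the order, both DC I libraries lay above both of mast cell II only by a gap smaller than the spread of DC I, and both NK libraries lay above both of T cells.

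The share of cells with Cdkn1a was 100% (71.5 to 100) and 90.9% (58.7 to 99.8) in DC III, 81.2% (74.8 to 86.6) and 91.8% (87.2 to 95.2) in Mac III, 76.2% and 77.2% in Mac IV and 74.1% and 80% in Mac II. In neutrophils it was 5.45% and 12.8% and in T cells 3.85% and 5%. In Mac III the middle cell had 337.9 and 582.2 CPM and the highest cell 4133 and 4170 CPM. In Mac V the middle cell had 0 CPM in both animals, so most of its cells had no read of Cdkn1a.

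B cells against T cells gave a log2 difference of 3.61 ± 0.81 (SE) for Cdkn1a, with an unadjusted p of 0.000214 and an adjusted p of 0.128 by edgeR's test, which did not pass. Without B cells of the male its adjusted p was 0.0369, and over the other 3 libraries left out in turn it reached 0.684. No gene of the 10 was called there by edgeR, against 0.0962% of all genes. At an unadjusted p under 0.05 stood 1460 of all genes and, of the 10, only Cdkn1a. DESeq2 called 2 of the 10, beside 9.13% of all genes, and a fit with the animal as a replicate block called 1, Cdkn1a.

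**Figure D2:**
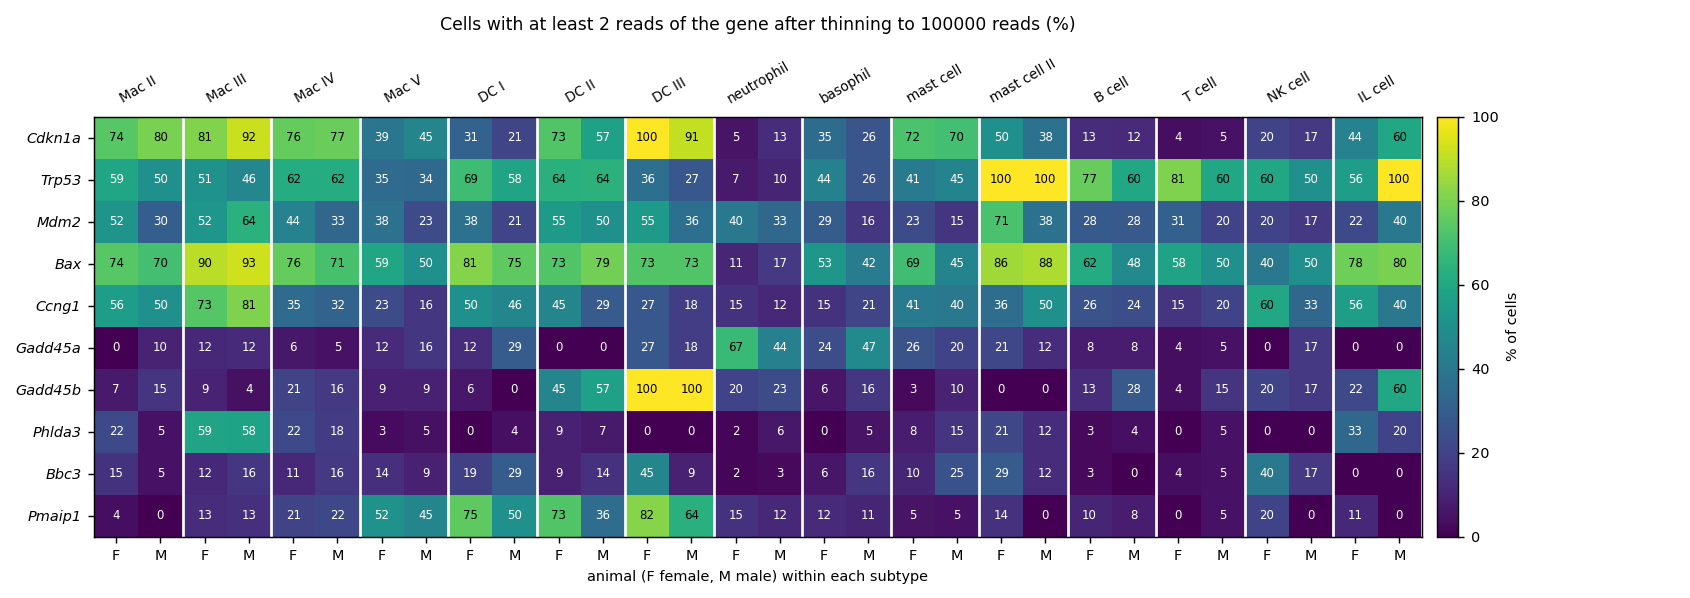
Share of cells with at least 2 reads of each gene after thinning to 100000 reads, by subtype and animal. Gadd45b was found in 100% of DC III cells of both animals, and Bax in 89.5% and 92.8% of Mac III cells.

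Ccng1, a cyclin that p53 induces and that feeds back on Mdm2, was highest in Mac III with 163.5 and 131.9 CPM. NK cells were next with 78.5 and 197.5 CPM, and their animals lay on both sides of Mac III. Of the NK reads 88.99% and 53.9% came from 1 cell in each animal. DC III was lowest with 49.6 and 8.69 CPM. The message was in 73.5% and 80.8% of Mac III cells and in 34.9% and 31.6% of Mac IV cells. No neighbours in the order of the 15 subtypes were apart for Ccng1, and the adjusted p across subtypes was 0.623 by edgeR, which did not pass.

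Gadd45a and Gadd45b encode small stress proteins that bind kinases and cell cycle regulators; Gadd45a is a p53 target, and Gadd45b is known to respond to NF-kB as well. They marked different cells. Gadd45a was high in neutrophils, at 491 and 317.9 CPM. Basophils had 84.1 and 224.4 CPM, mast cells 61.7 and 178.04 CPM and Mac V 39.6 and 66.6 CPM. In the male, 89.3% of the mast cell reads and 50.7% of the Mac V reads came from 1 cell.
Both neutrophil libraries lay above all others. DC III had 83.7 and 17.4 CPM, DC I 18.98 and 50.3 CPM and NK cells 1.34 and 37.3 CPM. Mac III had 10.3 and 10.1 CPM, Mac IV 5.01 and 3.91 CPM and Mac II 0.708 and 6.90 CPM. B cells had 14.9 and 3.96 CPM, T cells 6.97 and 4.41 CPM and mast cell II 11.6 and 1.93 CPM.
DC II and IL cells had 0 reads of Gadd45a in both animals. In neutrophils 67.3% (53.3 to 79.3) and 43.6% (32.4 to 55.3) of cells had the message, against 23.5% and 47.4% of basophils and 11.6% and 12.02% of Mac III cells. The mean of neutrophils was 2.62-fold that of basophils, and the adjusted p across subtypes was 9.03e-05 by edgeR. Gadd45a overlaps the gene E230016M11Rik on the RefSeq annotation, and whether counting used the strand is not given in the sources used here. That neighbour had 2.87 and 0.229 CPM in neutrophils and at most 42.3 CPM in any library.

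Gadd45b was concentrated in DC III, at 1684 and 2919 CPM. All DC III cells had the message, 11 in each animal, and the middle cell had 1564 and 2564 CPM. DC II had 102.7 and 456 CPM, IL cells 61.3 and 331.9 CPM and neutrophils 186.5 and 191.4 CPM.
Both DC III libraries lay above all others, and their mean was 8.23-fold the mean of DC II. Basophils had 41.97 and 123.2 CPM, B cells 21.8 and 106.3 CPM and Mac IV 89.6 and 35.3 CPM. NK cells had 64.2 and 23.7 CPM, Mac V 35.5 and 42.2 CPM and mast cells 35.7 and 34.7 CPM. T cells had 9.59 and 37.4 CPM, Mac II 9.74 and 31.2 CPM and Mac III 17.6 and 12.1 CPM.
DC I and mast cell II were at the bottom, with 11.98 and 0 CPM and 1.16 and 0 CPM. The adjusted p across subtypes was 0.000525 by edgeR.

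Bax, which forms pores in the mitochondrial membrane during apoptosis, was highest in Mac III. Mac III had 290.8 and 336.5 CPM, Mac IV 235.7 and 216.5 CPM and basophils 191.6 and 217.2 CPM. DC II was lowest with 91.7 and 101.6 CPM. Both Mac III libraries lay above all others, yet the adjusted p across subtypes was 0.600 by edgeR and Bax was not called in any of the 30 fits without a library.
Another test, limma voom, called Bax over the subtypes with an adjusted p of 0.0411, beside 54.2% of all genes. The widest spread between animals was in NK cells, with 30.1 and 247.8 CPM, and in neutrophils, with 40.5 and 176.9 CPM. The share of cells with Bax was 89.5% and 92.8% in Mac III, 76.2% and 70.9% in Mac IV and 10.9% and 16.7% in neutrophils. In Mac III the middle cell had 252.3 and 289.6 CPM.

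Bbc3 and Pmaip1 encode PUMA and NOXA, proteins that release the block on Bax and its relatives. Bbc3 had few reads in most libraries. NK cells had 52.6 and 83.3 CPM, basophils 8.83 and 85.5 CPM and DC I 29.8 and 39.8 CPM, and in NK cells 73.1% and 96.8% of the reads came from 1 cell. Neutrophils had 0.593 and 1.98 CPM, B cells 3.26 and 0.588 CPM and IL cells 0 reads in both animals.
The NK libraries overlapped those of basophils. The adjusted p for Bbc3 was 0.00995 by edgeR. The call was lost with non-cycling cells only (adjusted p = 0.429 by edgeR) and in the shared run alone. NK cells were absent from the former fit, and the cause of either loss was not tested.

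Pmaip1 was highest in dendritic cells and Mac V. DC III had 772 and 70.4 CPM, with the animals far apart, Mac V 218.9 and 109.04 CPM, DC I 144.5 and 75.2 CPM and DC II 175.9 and 43.7 CPM. The message was in 81.8% and 63.6% of DC III cells, 51.5% and 45.5% of Mac V cells and 75% and 50% of DC I cells. Mac III had 18.6 and 12.1 CPM and Mac IV 40.98 and 34.2 CPM.
By cells, then, DC III stood highest in both animals although their levels were far apart. Mac II was lowest with 0.846 and 0.226 CPM, and T cells and mast cell II had 0 reads in 1 animal each. The adjusted p across subtypes was 0.0165 by edgeR.

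Phlda3, a p53 target that holds back the survival kinase Akt, was highest in Mac III. Mac III had 139.04 and 150.2 CPM, IL cells 91.2 and 47.2 CPM and Mac IV 46 and 39.5 CPM. Neutrophils had 10.5 and 84.4 CPM, where all reads of the female came from 1 cell. Mac II had 20.5 and 5.55 CPM and Mac V 3.55 and 4.78 CPM.
Both Mac III libraries lay above all others, and their mean was 2.09-fold that of IL cells. B cells had 8.28 and 5.69 CPM, mast cells 14.4 and 11.3 CPM and mast cell II 35.2 and 8.62 CPM. DC III and NK cells had 0 reads, DC II 1.14 and 0.280 CPM, and basophils, DC I and T cells 0 reads in the female and 34.3 CPM, 4.02 CPM and 2.08 CPM in the male. The share of cells with Phlda3 was 58.6% (51.02 to 65.8) and 58.2% (51.2 to 64.96) in Mac III, 22.2% (12.7 to 34.5) and 17.7% (10.04 to 27.9) in Mac IV and 3.03% (0.369 to 10.5) and 4.55% (0.555 to 15.5) in Mac V.
Phlda3 was thus found in most Mac III cells and in few cells of Mac V. Its adjusted p across subtypes was 0.0435 by edgeR, 0.0651 with the animal as a replicate block and 0.0509 when each cell was scaled to the same total.

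DC III was next set against DC I and DC II, averaged on the log scale. Of the 10 genes, 3 were called by edgeR's test, all higher in DC III, against 7.22% of all genes, of which 435 were higher and 691 lower. Gadd45b was higher by 6.19 ± 1.32 (SE) on the log2 scale, with an adjusted p of 0.00724, and both DC III libraries lay above all DC I and DC II libraries. Without DC II of the female its adjusted p was 0.0525, and the call was kept in the other 5 fits that left out a library. Cdkn1a was higher by 2.44 ± 0.61 (SE), with an adjusted p of 0.0181, and its libraries did not overlap either. Its call was lost in 5 of the 6 fits that left out a library, where the adjusted p reached 0.0779 by edgeR, and was kept only without DC I of the male (0.0285).
Gadd45a was the third, with an adjusted p of 0.00506 by edgeR. Its fitted difference rests on DC II, which had 0 reads, and no fold is given for it: DC I and DC III overlapped, and 86.9% and 68.8% of the DC III reads came from 1 cell in each animal. Phlda3, with 0 reads in DC III, had an unadjusted p of 0.0472 and an adjusted p of 0.213 by edgeR's test. The other 6 genes were not called.

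The macrophage subtypes Mac III, Mac IV and Mac V were compared in pairs. No gene of the 10 passed edgeR's test in any of the pairs when all 15 subtypes entered the fit and shared an estimate of the spread. All genes were called in 0.263% of cases for Mac III against Mac IV, 0.442% for Mac III against Mac V and 0.167% for Mac IV against Mac V. At an unadjusted p under 0.05 were 1231, 1467 and 1660 genes, and among the 10 only Cdkn1a and Gadd45a in the last pair. Cdkn1a was higher in Mac IV than in Mac V by 1.96 ± 0.75 (SE), with an adjusted p of 0.404.
The spread was then estimated from these 6 libraries alone, an alternative chosen after the data were seen. In that fit 2 genes were called between Mac III and Mac IV, 5 between Mac III and Mac V and 4 between Mac IV and Mac V, beside 6.79%, 9.58% and 10.4% of all genes. Phlda3 was called in all of these pairs: its log2 difference was 1.80 ± 0.31 (SE) for Mac III over Mac IV, with an adjusted p of 0.0234 by edgeR, and 5.09 ± 0.36 (SE) for Mac III over Mac V, with an adjusted p of 0.000985. Ccng1 in Mac III exceeded Mac IV by 1.49 ± 0.31 (SE), with an adjusted p of 0.0408, and Mac V by 1.56 ± 0.31 (SE), with 0.0287. Bax in Mac III exceeded Mac V by 1.07 ± 0.25 (SE), with 0.0435. Gadd45a and Pmaip1 went the other way between Mac III and Mac V, at -2.41 ± 0.55 and -3.46 ± 0.46 (SE), with 0.0431 and 0.00724. Cdkn1a was higher in Mac IV than in Mac V by 1.99 ± 0.38 (SE), with 0.0257. With all subtypes in the fit the difference of Phlda3 for Mac III over Mac V was of about the same size with a wider error, 5.07 ± 2.60 (SE), adjusted p = 0.579 by edgeR.

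Mast cells and basophils were the last pair. No gene of the 10 was called by edgeR, against 1.71% of all genes. At an unadjusted p under 0.05 there were 2591 genes and none of the 10. DESeq2 called 1 of the 10, beside 21.6% of all genes.

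Within single cells, the 4 targets Mdm2, Ccng1, Bax and Phlda3 were found together most often in Mac III. All 4 were present in 53 Mac III cells of the female, 29.3% (95% exact Clopper-Pearson interval 22.8 to 36.5), and in 74 of the male, 35.6% (29.1 to 42.5). Mac IV had 4 of 63 and 2 of 79 such cells. Mac V had 0 of 66, with an exact interval up to 5.44%, and 0 of 44, with one up to 8.04%.
The intervals of both Mac III samples lay above those of both Mac IV and both Mac V samples; intervals cover counting error only. These genes were grouped with their levels known, and each had its highest mean share of cells in Mac III. The count is thus a description of Mac III and no test. The remaining subtypes had 0 to 3 such cells in an animal, many out of few cells. Mac II had 3 of 27 in the female, 11.1% (2.35 to 29.2), and mast cell II 1 of 8 in the male, 12.5% (0.316 to 52.7). These intervals overlapped those of Mac III, as did those of other subtypes with few cells, so Mac III is not set apart from all subtypes. Of the 10 genes the middle Mac III cell had 5 in both animals, the middle DC III cell 6 and 4, and the middle neutrophil 2 and 1. Cells with at least 5 of the 10 made up 50.3% and 62.5% of Mac III and 81.8% and 45.5% of DC III.

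**Figure D3:**
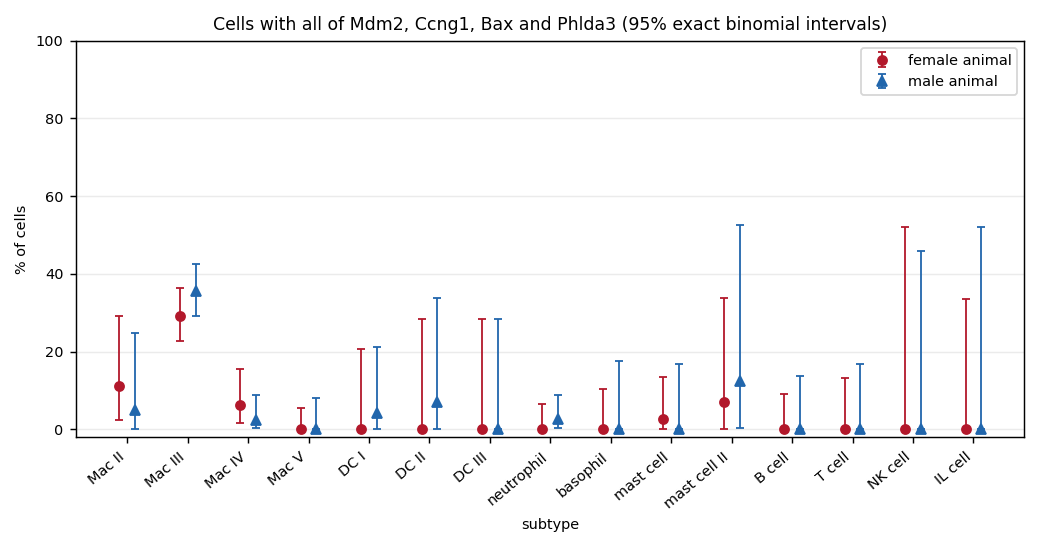
Share of cells with all of Mdm2, Ccng1, Bax and Phlda3 by subtype and animal, with 95% exact binomial intervals that cover counting error only. Mac III, at 29.3% and 35.6%, has intervals above those of Mac IV and Mac V in both animals. The genes were grouped with their levels known, and each had its highest mean share of cells in Mac III, so this is no test. Intervals of several subtypes with few cells, such as Mac II and mast cell II, overlap those of Mac III.

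The 10 genes did not form a common gradient across the subtypes. Over the 30 libraries, which share animals, plates and depth by subtype, the Pearson correlation of log2(CPM + 1) ran from -0.556 for Ccng1 and Gadd45b to 0.442 for Cdkn1a and Phlda3 in 45 pairs, and 0 pairs exceeded 0.5. Among non-cycling Mac III cells the Spearman correlation ran from -0.128 to 0.309 in the female and from -0.138 to 0.321 in the male, each over more than 150 cells. Cdkn1a and Bax had the highest value in both animals, 0.309 and 0.321, and Cdkn1a with Phlda3 had 0.258 and 0.270. Cells that share depth and batch are not independent, and such weak values in sparse counts are given as a description only.

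The genes most like each of the 10 were taken by Pearson correlation over the same 30 libraries among 9139 genes with a mean of at least 10 CPM. Trp53 was closest to Kars (0.876), which encodes a lysyl-tRNA synthetase, Eef1a1 (0.873), which encodes a translation elongation factor, and Npm1 (0.861), a nucleolar protein. Gadd45b was closest to H2-K2 (0.738), Tnfaip3 (0.669), a brake on NF-kB, and Btg1 (0.667). Pmaip1 was closest to Map4k5 (0.783), Zfp516 (0.769) and Mx1 (0.752), an interferon-induced gene. Phlda3 was closest to Osbpl11 (0.744), Adgrl2 (0.744) and Cd93 (0.735).
The highest value over all 10 genes was that of Trp53 with Kars. Cdkn1a had Specc1 (0.730), Mospd2 (0.724) and Ttc17 (0.722), and Bax had Cul5 (0.746) and Spg7 (0.679) among its 3 closest. Gadd45a had Crispld2 (0.678), Prdm2 (0.671) and Csf1 (0.664), Mdm2 had Arg2 (0.644), Wfdc21 (0.631) and Capn1 (0.629). Ccng1 had Ech1 (0.637), Gfm1 (0.630) and Mto1 (0.622), and Bbc3 had Ly96 (0.605), Atp9b (0.601) and Atg12 (0.594). None of the 10 genes had another of the 10 among its 3 closest.

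Cycling cells were told apart from non-cycling cells by at least 5 reads of at least 4 of 10 proliferation genes after thinning. By this rule 13.2% of all cells were cycling; 20 cells had exactly 4 of the genes and 24 had 3, so the class is a range and not a type. Mac III, Mac IV, B cells and T cells had at least 5 cycling cells in each animal and gave 16 libraries, 8 pairs of cycling and non-cycling cells of the same animal and subtype. Over these subtypes 0 of the 10 genes were called by edgeR's test, against 1.48% of 14155 genes. At an unadjusted p under 0.05 there were 1726 genes and none of the 10; the smallest of the 10 was 0.123 for Ccng1. DESeq2 called 1 of the 10, Pmaip1, beside 21.7% of all genes.

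Cdkn1a, the inhibitor that p53 uses to stop the cycle, was not lower in cycling cells as a rule. Cycling Mac III cells had 1098 and 1094 CPM, and non-cycling ones 669.9 and 843 CPM. Cycling Mac IV cells had 2331 and 1495 CPM, and non-cycling ones 871 and 1725 CPM.
In Mac III both animals were higher in cycling cells, and in Mac IV the animals went opposite ways. B cells had 81.1 and 47.3 CPM in cycling and 257.1 and 5.95 CPM in non-cycling cells, and T cells 13.7 and 0.0766 CPM and 0 and 28.8 CPM. Cdkn1a was higher in the cycling cells of 5 of 8 pairs, with a log2 difference of -0.44 ± 0.93 (SE) and an adjusted p of 0.911 by edgeR. The median log2 difference of all genes was -0.31.

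Ccng1 was higher in cycling cells in 6 of 8 pairs, by 0.53 ± 0.33 (SE) on the log2 scale, with an adjusted p of 0.573 by edgeR. Cycling Mac III cells had 269.3 and 205.8 CPM of Ccng1 and non-cycling ones 149.2 and 118.8 CPM, and Mac IV had 163.6 and 68.9 CPM and 38.8 and 54.6 CPM. In these macrophages all pairs had the higher value in the cycling cells. Trp53 was also higher in 6 of 8 pairs, by 0.06 ± 0.29 (SE), as was Mdm2, by 0.18 ± 0.47 (SE). Bax was higher in 5 of 8 pairs, by 0.17 ± 0.26 (SE).
Gadd45b was lower in cycling cells in 6 of 8 pairs, by -1.25 ± 1.32 (SE) on the log2 scale. The other genes were higher in 3 or 4 of 8 pairs: Gadd45a in 4, Phlda3 in 4, Bbc3 in 3 and Pmaip1 in 3. Their standard errors were above 1, so differences of about 1 on the log2 scale would lie within the error.

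**Figure D4:**
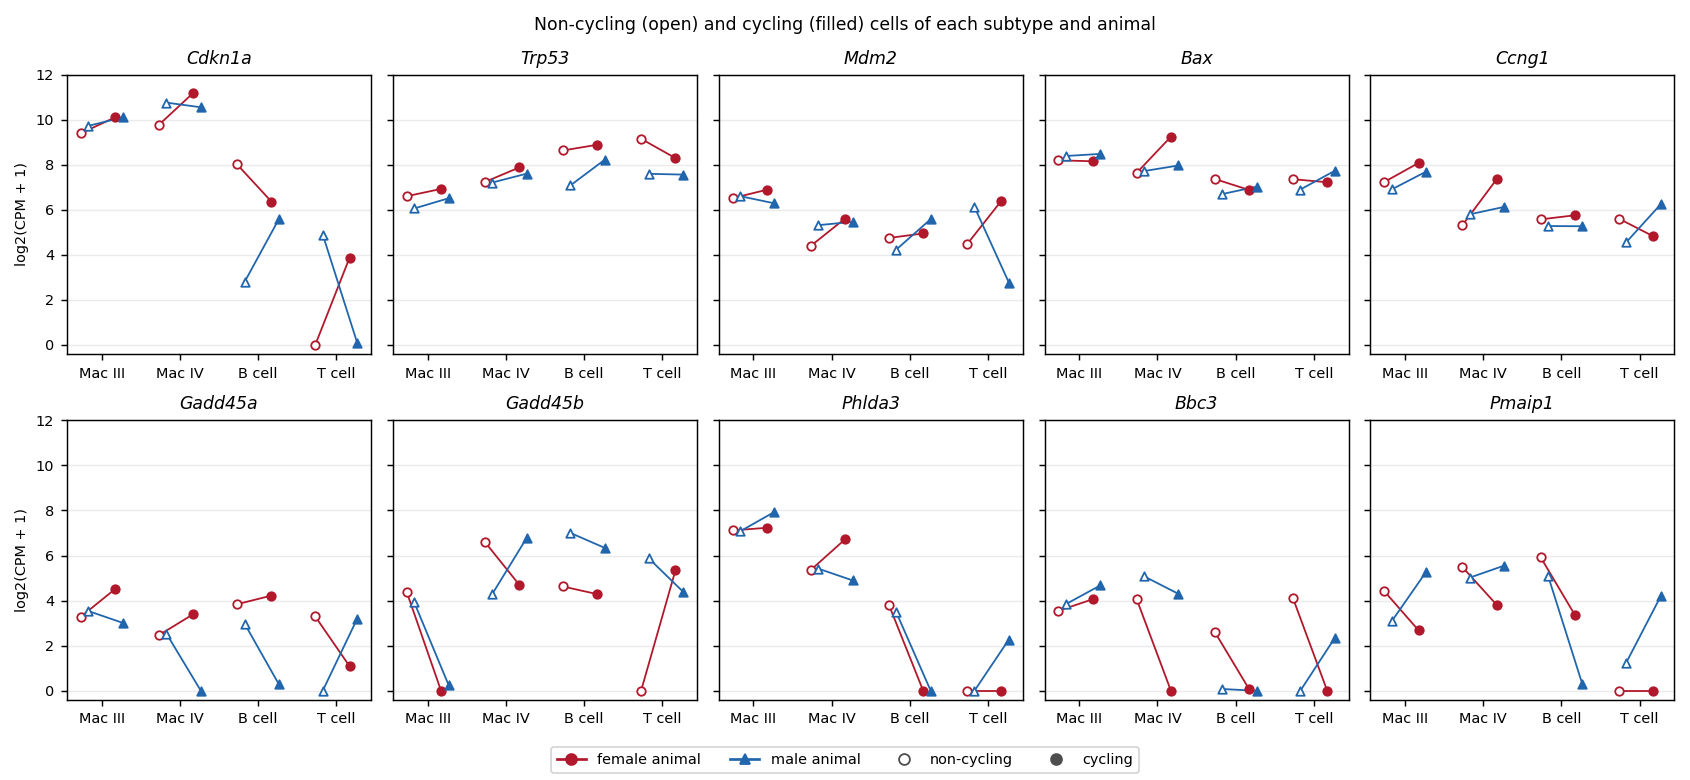
Level of the 10 genes in cycling and non-cycling cells of Mac III, Mac IV, B cells and T cells, as log2(CPM + 1), with each line joining the cells of 1 animal. Lines run up and down for most genes, and Ccng1, Mdm2 and Trp53 were each higher in cycling cells in 6 of 8 pairs.

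In Mac III alone, 2 of 14155 genes were called by edgeR, 0.0141%, and 0 of the 10; with the animal as a replicate block it was 0.0353% of all genes. At an unadjusted p under 0.05 there were 404 genes and, of the 10, Gadd45b, with an adjusted p of 1.00 by edgeR. Gadd45b had 0 and 7 reads in 24 and 31 cycling Mac III cells, and none of those cells had the message after thinning. The non-cycling cells had 19.95 and 14.2 CPM, and 10.8% and 5.09% of them had the message. With 0 of 24 and 0 of 31 cells, shares of up to 12.5% and 9.68% are allowed in the cycling ones, so a lower share was not detectable with so few cells.
Whether the cycling effect differed among the 4 subtypes was tested with an interaction term. It called 0 of the 10 genes and 0.0353% of all genes by edgeR, with 1120 genes at an unadjusted p under 0.05, and 0 genes with the block. DESeq2 called 3 of the 10, beside 21.7% of all genes. Phlda3 had an unadjusted p of 0.000853 and an adjusted p of 0.254 by edgeR's test. Phlda3 was called by DESeq2 and in the shared sequencing run alone, beside 0.319% of all genes in that run. It had 0 reads in cycling B cells and in T cells of the female, so its fitted effect there is no fold.

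By share of cells the order was different. Trp53 was found in a larger share of cycling than of non-cycling cells in 8 of 8 pairs, Cdkn1a and Bax in 7, and Ccng1 in 6. The other genes had 3 to 5 such pairs. In Mac III the share with Trp53 was 62.5% against 49.7% in the female and 67.7% against 42.4% in the male.
Cycling cells also had more genes detected at the same thinned depth in all 8 pairs, for example a median of 4787 against 3987 in Mac III of the female. Its part in the shares was not tested, and the same counts of pairs over all genes are not given here.

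Other genes of the pathway were followed through lists. Of 36 other p53 targets, 16 differed among the subtypes by edgeR's test, 44.4% beside 34.3% of all genes, among them Btg2, Mcl1, Fas, Perp and Gdf15. Of 15 tested regulators of p53, 1 did, Hipk2, a kinase that acts on p53. Of 46 genes of DNA damage sensing and repair, 7 did, 15.2%, among them Atm, which encodes the kinase that senses breaks. Of 12 cell cycle brakes 6 did, of 13 genes of the Bcl2 family 7, and of the 2 other Gadd45 genes 1, Gadd45g. Between DC III and the other dendritic cells 5 of the 36 targets were called, 2 higher and 3 lower, beside 7.22% of all genes, and between Mac III and Mac IV none of the 36, beside 0.263%.
In cycling cells the genes of DNA damage sensing and repair had a median log2 difference of 0.67, against -0.31 for all genes, and 4 of 46 were called by edgeR, beside 1.48% of all genes, all higher: Brca1, Fancd2, H2afx and Pcna. Brca1, which repairs breaks, ran from 9.37 to 73.7 CPM with a median of 36.5 in the 8 cycling libraries, and from 0 to 1.18 CPM in the 8 non-cycling ones. It was higher in 8 of 8 pairs, with an adjusted p of 0.000961 by edgeR. H2afx, a histone that marks breaks, was higher in 8 of 8 pairs, by 4.17 ± 0.81 (SE) on the log2 scale, with 0.0151. Fancd2 had 0 to 87.1 CPM in cycling and 0 to 2.56 CPM in non-cycling libraries and was higher in 7 of 8 pairs, with 0.0413. No fold is given for genes with non-cycling libraries at 0. Cycling cells were chosen by their proliferation genes, so the higher level of these repair genes is not independent of that choice. Whether DNA damage had a part was not tested.
Of the other p53 targets 3 of 36 were called in cycling cells, beside the same 1.48% of all genes, with a list median of -0.05. Gtse1 and Ckap2, both also genes of mitosis, were higher in 8 of 8 pairs, with adjusted p of 0.0139 and 0.0485 by edgeR. Gtse1 had 17.9 to 97.6 CPM in cycling and 0 to 2.64 CPM in non-cycling libraries, and Ckap2 12.9 to 110.5 and 0 to 7.55 CPM. Btg2, a brake on growth, was lower in 8 of 8 pairs, by -0.998 ± 0.210 (SE), with 0.0260.
Of the 12 cell cycle brakes 3 were called: Cdkn2d was higher, by 1.59 ± 0.33 (SE), adjusted p = 0.0218, and Btg1 and Btg2 were lower, Btg1 by -1.54 ± 0.33 (SE), adjusted p = 0.0278. Regulators of p53, the Bcl2 family and the other Gadd45 genes had 0 calls in the cycling comparison by edgeR.

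Cdkn1a and Gadd45b are also known to respond quickly when cells are handled, so 14 early response genes, such as Fos, Jun and Egr1, were set beside them. All 14 differed among the subtypes by edgeR's test, beside 34.3% of all genes. Their summed level ran from 1902 CPM in Mac III of the male to 28635 CPM in basophils of the female. DC III was highest for Gadd45b in both animals, and for Cdkn1a by the mean only, since mast cells were higher in the male. The summed early response level of DC III was 5484 and 6305 CPM. That of Mac III was 2395 and 1902 CPM, the lowest mean of the subtypes.
Over the 30 libraries the Pearson correlation of log2 levels with that sum was 0.229 for Gadd45b, 0.386 for Cdkn1a, 0.260 for Pmaip1 and 0.00792 for Mdm2, a description over libraries that share animals and depth. Their part in the levels of these 4 genes was not tested. In DC III against DC I and DC II, 8 of the 14 were called by edgeR, 2 higher and 6 lower, beside 7.22% of all genes. Of the 14, Junb and Btg2 were lower in cycling cells, Junb by -1.33 ± 0.30 (SE) with an adjusted p of 0.0352 by edgeR.

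**Figure D5:**
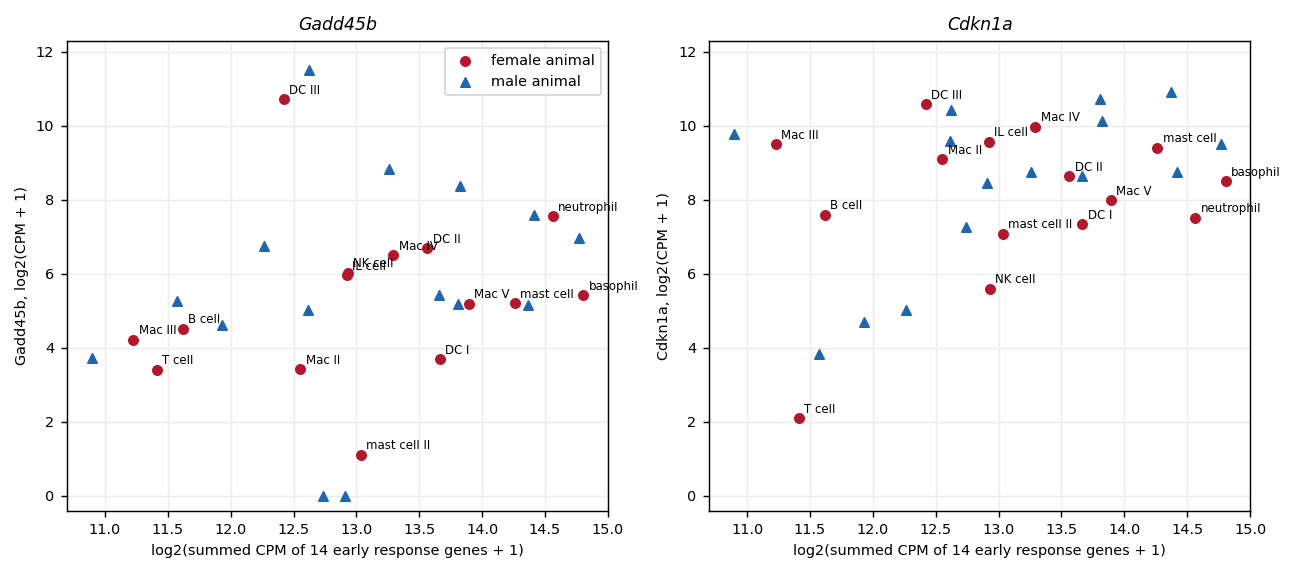
Level of Gadd45b (left) and Cdkn1a (right) against the summed level of 14 early response genes, both as log2(CPM + 1), for 30 libraries; subtypes are named beside the female animal. DC III lies at the top of the Gadd45b panel at a middling sum, and Mac III has the lowest sum with a high Cdkn1a.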

How the data were processed

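Plate-based libraries made with the Tn5 transposase, 1 per cell, were counted per gene by the authors, who deposited raw counts, whole numbers from 0 to 740785, in 1 table of 18072 genes and 1183 cells. The labels name no molecular identifiers, so copies of a molecule made by PCR count separately. The submitters' processing notes name STAR 2.5.2b, HTSeq 0.10 and GRCh38, a human build, although the labels give mouse samples; the settings are not given in the sources used here. All columns were matched to a cell by title, and 0 columns were left unused. Subtype, animal and run came from the labels, and no doublet caller was run on the sorted cells.

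Counts were summed per animal and subtype (at least 5 cells in each animal), and CPM was computed from these sums. edgeR 4.0.16 (R 4.3.3) was fitted to all libraries with TMM factors, filterByExpr and a quasi-likelihood F test, with Benjamini-Hochberg adjustment over all genes tested. The SE was derived from the fitted log2 difference and its F value. The 10 genes, the pathway lists and the comparisons were chosen with earlier results of these data known. The genes named are the 10, the 3 most correlated genes of each, and from each list the 3 called genes with the largest difference in each direction in cycling cells; list genes named among the calls over subtypes were chosen after their values were seen. The p-values of the subtype comparisons rest on the spread between summed libraries of 2 animals, 1 of each sex. That spread also holds the sampling of cells, which were few in some libraries. In the cycling comparison over subtypes it also holds differences of the cycling effect between subtypes. The animal itself was a term only in the fits with a replicate block. Intervals on shares are exact Clopper-Pearson at 95%, limits for a share of 0 use 3 counts, and both cover counting error only. Thinning left out 5 cells with fewer than 100000 reads. The common biological coefficient of variation was 1.15 over subtypes and 1.18 over cycling and non-cycling libraries. The animal was taken from the label of the mouse, and libraries of 1 animal are paired by origin. The female minus male differences of 2 subtypes correlated with a median of 0.0647 over 105 pairs of subtypes. Alternatives included DESeq2 1.42.0, limma 3.58.1 voom, other size factors, no filter, the animal as a block, the shared run and each library left out. Promoter sequences are those of RefSeq on GRCm38.p6. The most correlated genes are given without 1 that is not reported here.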

Additional observations from a re-analysis of the deposited data

Results flagged for a closer look

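The single Mac I cell, from the male, entered no comparison, and 7 of the 10 genes had more than 3 reads in it. It held 2440163 reads. After thinning, 9 of the 10 proliferation genes had at least 5 reads, so it met the rule for cycling cells. Its levels were 507 CPM of Cdkn1a, 318.01 CPM of Gadd45b, 284.8 CPM of Bax, 280.7 CPM of Trp53, 82.4 CPM of Bbc3, 59.8 CPM of Ccng1 and 4.92 CPM of Pmaip1. Mdm2, Gadd45a and Phlda3 had 0 reads. It is 1 cell, with no replicate.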

How the results depend on the processing

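The share of genes called moved most with the test. DESeq2 called 3.12% of genes for Mac III against Mac IV, 6.45% for Mac III against Mac V, 6.60% for Mac IV against Mac V, 33% for DC III, 14.4% for neutrophils, 9.13% for B against T cells, 21.6% for mast cells against basophils and 62% over the 15 subtypes. It called 21.7% for cycling cells, 1.63% for cycling Mac III and 21.7% for the difference of the cycling effect among subtypes. limma voom called 13.4%, 13%, 11.5%, 10.9%, 6.77%, 3.17%, 9.74%, 54.2%, 2.59%, 0.756% and 0.523% in the same order; its weights for Cdkn1a ran from 0.183 to 141000, and it gave that gene an adjusted p of 1 over the subtypes. Of the 10 genes DESeq2 called 4 for neutrophils, 2 for B against T cells, 1 for mast cells, 1 for cycling cells and 3 for the difference among subtypes. Voom called 5 for Mac III against Mac IV, 4 for Mac III against Mac V and 2 for neutrophils. Phlda3 turned direction between B and T cells with DESeq2, to -7.81 on the log2 scale. The macrophage libraries alone gave 6.79%, 9.58% and 10.4% of genes, and of the 10 genes 2, 5 and 4.

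The shared run alone gave 0.339% for Mac IV against Mac V, 0.399% for B against T cells, 0.271% for cycling cells, 0% for cycling Mac III and 0.319% for the difference among subtypes, with 4 of the 10 genes over subtypes and 1 for that difference; it had too few cells for DC III. Non-cycling cells alone called 3 of the 10 over subtypes. For the shared run and the non-cycling cells, the share of all genes called over subtypes is not given here. With the animal as a replicate block, the paired analysis, 1 of the 10 was called for B against T cells, 0.0353% of genes for cycling Mac III and 0% for the difference among subtypes; over the subtypes Phlda3 was lost (adjusted p = 0.0651 by edgeR), and no other call of the 10 changed. Without Mac III, Mac IV, B or T cells the cycling comparison called 0.601%, 0.636%, 0.818% and 0.914%. With no filter it was 0.0224% in cycling Mac III and 0.0503% for the difference among subtypes, and 0.0631% for the latter with each cell scaled equally. With 2 or 6 of 10 cycling genes required, Mac III gave 0% and 0.0641% and the difference among subtypes 0.0887% and 0.0142%.

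Leaving out each library in turn gave a share of 0.00603% to 0.103% for Mac III against Mac IV, 0.0965% to 0.138% for Mac III against Mac V, 0% to 0.0423% for Mac IV against Mac V and 3.38% to 4.6% for DC III, with 1 to 3 of the 10. It gave 0.012% to 0.658% for neutrophils, 0% to 0.0664% for B against T cells, with 0 to 1 of the 10, 0.587% to 1.04% for mast cells and 24% to 35.4% over subtypes, with 5 to 8 of the 10. It gave 0.905% to 1.21% for cycling cells, 0% to 0.0389% for cycling Mac III and 0% to 0.505% for the difference among subtypes, with 0 to 1 of the 10. By the male alone, 5 of the 10 genes kept their highest subtype, and by the female alone 10: in the male Cdkn1a was highest in mast cells, Mdm2 in Mac III, Ccng1 in NK cells, Bbc3 in basophils and Pmaip1 in Mac V. For the 10 genes, 76 of 90 results over the subtypes kept their side of the threshold in the 9 settings other than leaving out each library in turn. Among these settings, the shared run and the non-cycling cells held only 12 of the 15 subtypes. The cause of each change was not tested.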
